A study of Homo sapiens with 8 samples.

Results

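The KLF and SP genes encode a family of transcription factors with zinc fingers at the C-terminal end that read GC-rich DNA, the GC box and the related CACCC box. SP1 and SP3 are present in most cells and bind the GC boxes of housekeeping promoters, and the KLF proteins act mostly in differentiation, with KLF2 and KLF4 known for their roles in quiescence and in monocytes. PML::RARA, the fusion protein of acute promyelocytic leukemia, joins PML to the retinoic acid receptor RARA and can be drawn to DNA by its RARA part or through other factors. Binding of the fusion protein was mapped by Cut&Run, a method that cuts DNA out of nuclei at the place an antibody sits and sequences the fragments.

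The cells were U937-PR9, a monocytic line that carries a PML::RARA transgene behind a zinc-inducible promoter, and every library, the uninduced ones included, came from this transgenic line. Induced cells received 100 μM ZnSO4 for 5 h and uninduced cells received water, and anti-PML-RARA and anti-RARA antibodies were each applied to 2 replicates of either condition, which makes 8 samples in 4 groups. The values below come from 1 list, the peaks that both replicates of induced cells shared under the anti-PML-RARA antibody. Each peak has 1 value for the replicates together, so no replicate error can be given and no test was run. Sequencing depth is unknown. Zinc was given to the induced cells only, so an effect of zinc and one of PML::RARA cannot be told apart here.

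Of 10 KLF and SP genes looked up, 8 had a row under their own symbol, where 29.9% of 20149 protein-coding genes had one. The 10 genes were chosen with earlier results of these data known, so this count is no result about the family. Those with a row were SP1, SP3, KLF2, KLF6, KLF10, KLF11, KLF13 and KLF16, with 1 row each, whereas KLF3 and KLF4 had none. A symbol means that the authors placed the apex, the point of largest signal, in the promoter of that gene, and such a peak is called labelled here. To these 8 labelled peaks were added the 18 peaks without any symbol whose centre lay within 50 kb of one of them. The 26 peaks were drawn from 15412 in the list, of which 7169 are labelled and 8243 are not. The unlabelled peak farthest inside the limit lay 40539 bp from the KLF2 row with a height of 20, and the nearest one outside lay 52433 bp from the KLF10 row with a height of 34.

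Peak height is read here as the largest value within a peak and total signal as its sum over the peak, both in the deposited units. Ranks run over all 15412 peaks, with rank 1 for the highest or widest, and peaks of equal value share the rank. Coordinates are those of hg19.

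The DNA under the apexes shows what the promoters share and where they differ. The stretches of 120 bases centred on the apex are given for 7 of the labelled peaks, on the strand of the gene, from the reference genome. Capitals mark GC boxes (GGGCGG, or CCGCCC when it lies on the other strand) and CCAAT boxes (CCAAT, or ATTGG on the other strand), the site of the NF-Y complex.

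SP1, chr12:53773725-53773844, plus strand: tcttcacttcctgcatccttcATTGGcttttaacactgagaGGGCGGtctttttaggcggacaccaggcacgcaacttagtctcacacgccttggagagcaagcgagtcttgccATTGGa
SP3, chr2:174829769-174829888, minus strand: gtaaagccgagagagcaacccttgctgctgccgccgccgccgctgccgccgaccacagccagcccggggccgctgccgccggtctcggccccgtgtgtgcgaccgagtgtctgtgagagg
KLF2, chr19:16435429-16435548, plus strand: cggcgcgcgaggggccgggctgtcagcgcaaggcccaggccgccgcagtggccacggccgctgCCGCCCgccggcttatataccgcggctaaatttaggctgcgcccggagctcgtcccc
KLF6, chr10:3827572-3827691, minus strand: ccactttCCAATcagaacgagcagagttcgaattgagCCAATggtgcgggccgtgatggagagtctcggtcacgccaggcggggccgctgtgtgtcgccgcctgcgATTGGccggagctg
KLF11, chr2:10183420-10183539, plus strand: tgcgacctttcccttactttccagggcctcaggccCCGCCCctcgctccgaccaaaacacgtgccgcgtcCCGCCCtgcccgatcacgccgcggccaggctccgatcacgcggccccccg
KLF13, chr15:31618889-31619008, plus strand: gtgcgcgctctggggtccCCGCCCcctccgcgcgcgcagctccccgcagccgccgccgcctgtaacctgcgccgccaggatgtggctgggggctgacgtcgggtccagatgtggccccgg
KLF16, chr19:1864119-1864238, minus strand: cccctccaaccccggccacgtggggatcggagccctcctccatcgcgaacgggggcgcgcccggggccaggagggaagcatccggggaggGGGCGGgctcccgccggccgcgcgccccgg

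Across the 8 labelled peaks, height ran from 18 at KLF2 to 70 at SP1, with a median of 29.5 against 26 over all 7169 labelled peaks. Width ran from 978 bp at KLF2 to 4213 bp at KLF10, with a median of 2020 bp against 1108 bp over all labelled peaks. Thus 7 of the 8 were wider than the median labelled peak and 4 of the 8 were higher. By width, 6 of the 8 (SP1, SP3, KLF6, KLF10, KLF13 and KLF16) were above the third quartile of 1539 bp, as were 25% of all labelled peaks. By height, 3 of the 8 (SP1, KLF10 and KLF13) were above the third quartile of 35, as were 23.2% of all labelled peaks. The members are a chosen set of 8 and these shares were not tested.

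**Figure D1:**
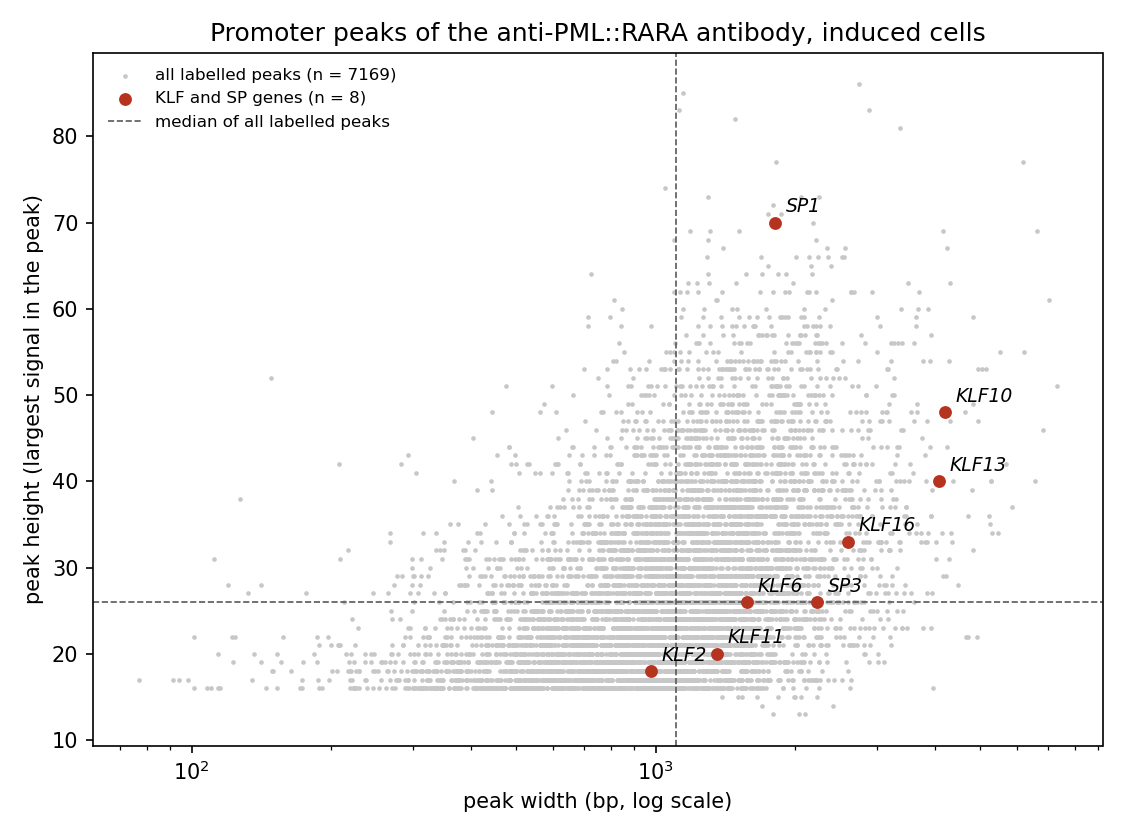
Height (largest signal, deposited units) against width (bp, log scale) of the 7169 labelled peaks (grey) and the 8 labelled peaks of KLF and SP genes (red), with the medians of all labelled peaks as dashed lines. SP1 sits near the top at a height of 70, KLF10 and KLF13 sit at the right at 4213 and 4081 bp, and KLF2 is lowest and narrowest of the 8.

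SP1, the founding GC-box factor, had the highest peak of the family. The gene (ENSG00000185591) lies on the plus strand of chromosome 12 from 53773960 to 53810230. Its labelled peak, from 53772957 to 53774768, had a height of 70, which ranked 28 in the list and 16 among labelled peaks. Its width of 1812 bp ranked 1479. The mean signal over the peak, 29.0 per base, ranked 4 among the 7169 labelled peaks, whose median was 9.08 per base. The SP1 peak thus had high signal over its whole length on average, and its apex was 176 bp upstream of the start site. Within 200 bp of the apex the sequence held 4 GC boxes and 4 CCAAT boxes, and with 57.6% G and C it was the least GC-rich of the 8.

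A row of unlabelled peaks led up to SP1. The peak at 53764678 to 53765699, whose apex was 8924 bp before the SP1 start site, had a height of 38 (rank 2313) and a width of 1022 bp (rank 5729). The peak from 53759780 to 53760092, 14121 bp upstream, was nearly as high at 37 (rank 2529) but only 313 bp wide (rank 14426). Neither apex lay within a protein-coding gene. The third upstream peak, from 53738242 to 53739316, had a height of 21 (rank 9879) and a width of 1075 bp (rank 5304), and its apex lay inside SP7, 385 bp downstream of an SP7 start site and 35246 bp from SP1. SP7 encodes the bone factor osterix, so this peak belongs by position to another gene of the same family. A small peak in intron 1 of SP1, from 53775181 to 53775398, had a height of 21 (rank 9879) and a width of 218 bp (rank 15139), among the narrowest in the list. The apex of this small peak was 185 bp downstream of another annotated SP1 start site.

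SP3, which binds the same sites as SP1 and can activate or repress, had a broad peak of ordinary height. The gene (ENSG00000172845) lies on the minus strand of chromosome 2 from 174745578 to 174830101. The labelled peak from 174828570 to 174830797 had a height of 26 (rank 6677), equal to the median of labelled peaks, and a width of 2228 bp (rank 697). Its apex lay in intron 1, 210 bp downstream of a start site, and its mean signal came to 44.6% of its height, the largest such share of the 8. The sequence around the apex held 2 GC boxes, and the printed stretch held none. A single unlabelled peak, from 174862103 to 174862347, lay 32058 bp upstream with a height of 24 (rank 7817) and a width of 245 bp (rank 15000).

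Among the activating KLF genes, KLF2 had the weakest promoter peak of the 8. KLF2, a factor of quiescence in lymphocytes and endothelium, is a short gene (ENSG00000127528) on the plus strand of chromosome 19 from 16435637 to 16439496. The labelled peak from 16435113 to 16436090 had a height of 18 (rank 12401) and a width of 978 bp (rank 6165), and the apex was 149 bp upstream. At KLF2, 2 of its 4 unlabelled peaks were higher than the promoter peak, as was 1 of 4 at KLF16 and none at the other 6 genes. The highest unlabelled peak of KLF2, from 16438320 to 16439667, covered the 3′ end of the gene, with its apex in the 3′ UTR, a height of 25 (rank 7226) and a width of 1348 bp (rank 3364). The next, from 16394112 to 16395037, lay 40886 bp upstream with a height of 20 (rank 10691) and a width of 926 bp (rank 6697). The remaining 2 were close to the lowest heights in the list. The peak from 16430325 to 16430597 had a height of 17 (rank 13294) and a width of 273 bp (rank 14809), and the one from 16441115 to 16441556, downstream of the gene, had a height of 16 (rank 14278) and a width of 442 bp (rank 12832).

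KLF6, an early-response factor that can induce the cell cycle inhibitor CDKN1A, had a promoter peak of median height. The gene (ENSG00000067082) lies on the minus strand of chromosome 10 from 3818188 to 3827473. The labelled peak from 3826783 to 3828359 had a height of 26 (rank 6677) and a width of 1577 bp (rank 2184), and the apex was 158 bp upstream. The printed stretch at KLF6 held 3 CCAAT boxes and no GC box, although 3 GC boxes lay within 200 bp of the apex. A second, unlabelled peak, lying in intron 1 from 3824809 to 3825572, reached a height of 19 (rank 11488) and a width of 764 bp (rank 8469), with the apex 814 bp before another annotated KLF6 start site.

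The KLF genes whose proteins bind the SIN3 corepressor, KLF10, KLF11, KLF13 and KLF16, included the 3 widest labelled peaks of the 8, and KLF11 was the exception. KLF10, induced early by TGF-beta, is a gene of 6942 bp (ENSG00000155090) on the minus strand of chromosome 8 from 103661012 to 103667953. Its labelled peak, from 103665852 to 103670064, had a height of 48 (rank 794) and a width of 4213 bp (rank 51). It had the largest total signal of the 8, 56769, above 99.7% of all peaks in the list. The apex lay in intron 1, 216 bp downstream of the nearest annotated start site, which is internal to the gene, and the peak covered 30.3% of the gene. An unlabelled peak from 103670383 to 103670614 had a height of 22 (rank 9138) and a width of 232 bp (rank 15053). Its centre was 434 bp beyond the upstream edge of the labelled peak.

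KLF13, which regulates cytokine genes in lymphocytes, had a peak of nearly the same breadth. The gene (ENSG00000169926) lies on the plus strand of chromosome 15 from 31619038 to 31727868. The labelled peak from 31617399 to 31621479 had a height of 40 (rank 1901) and a width of 4081 bp (rank 59), and the apex was 90 bp upstream. In the KLF10 and KLF13 peaks the mean signal was 28.1% and 26.5% of the height, below the first quartile of 30.4% over all labelled peaks, whereas in the SP1 peak it was 41.4%, above the third quartile of 39.5%. The average signal of these 2 broad peaks was thus low relative to the apex.

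Intron 1 of KLF13 held 3 further unlabelled peaks. The peak from 31645272 to 31646090 had a height of 20 (rank 10691) and a width of 819 bp (rank 7811). The peak from 31653182 to 31654369 had a height of 24 (rank 7817) and a width of 1188 bp (rank 4401). The peak from 31657738 to 31658390 had a height of 17 (rank 13294) and a width of 653 bp (rank 9843), and the apex was 143 bp before the start site of another KLF13 transcript. Each of them was lower than the promoter peak. Beyond the 50 kb limit, a peak over the 3′ end of KLF13, from 31726543 to 31728072, was higher than all of these, at 41 (rank 1727), with a width of 1530 bp (rank 2408).

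KLF16, a regulator of metabolic genes, lies on the minus strand of chromosome 19 from 1852398 to 1863578 (ENSG00000129911). The labelled peak from 1863453 to 1866046 had a height of 33 (rank 3709) and a width of 2594 bp (rank 395), and the apex was 600 bp upstream, the farthest of the 8. Inside the gene, an unlabelled peak from 1853314 to 1858558, with its apex in intron 1, had the same height of 33 (rank 3709) and a width of 5245 bp, which ranked 17 in the whole list. This was the widest of the 26 peaks. Together the 2 peaks covered 48.0% of KLF16. KLF2 followed at 42.3%, against a median of 2.66% over the 6025 protein-coding genes with a labelled peak, and KLF2 and KLF16 are short genes of 3860 and 11181 bp. Of the other unlabelled peaks, the one from 1875804 to 1876947 had a height of 18 (rank 12401) and a width of 1144 bp (rank 4730). The peaks from 1895226 to 1895765 and from 1897559 to 1898163, with the nearest protein-coding start site, that of SCAMP4, 9653 and 7520 bp away, had heights of 35 (rank 3088) and 31 (rank 4397) and widths of 540 bp (rank 11434) and 605 bp (rank 10497).

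KLF11, a close relative of KLF10, stood at the other end of this group. The gene (ENSG00000172059) lies on the plus strand of chromosome 2 from 10182976 to 10194963. The labelled peak from 10183376 to 10184734 had a height of 20 (rank 10691) and a width of 1359 bp (rank 3301), and the apex was 198 bp upstream of the nearest start site. KLF11 alone among the 8 had no unlabelled peak within 50 kb. Its apex region had the most GC boxes, 17 within 200 bp, and the highest GC content, 81.5%. The peak with the most GC boxes was among the lowest of the 8, and SP1, with 4, was the highest. A relation of GC boxes to height over the 8 was not tested.

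**Figure D2:**
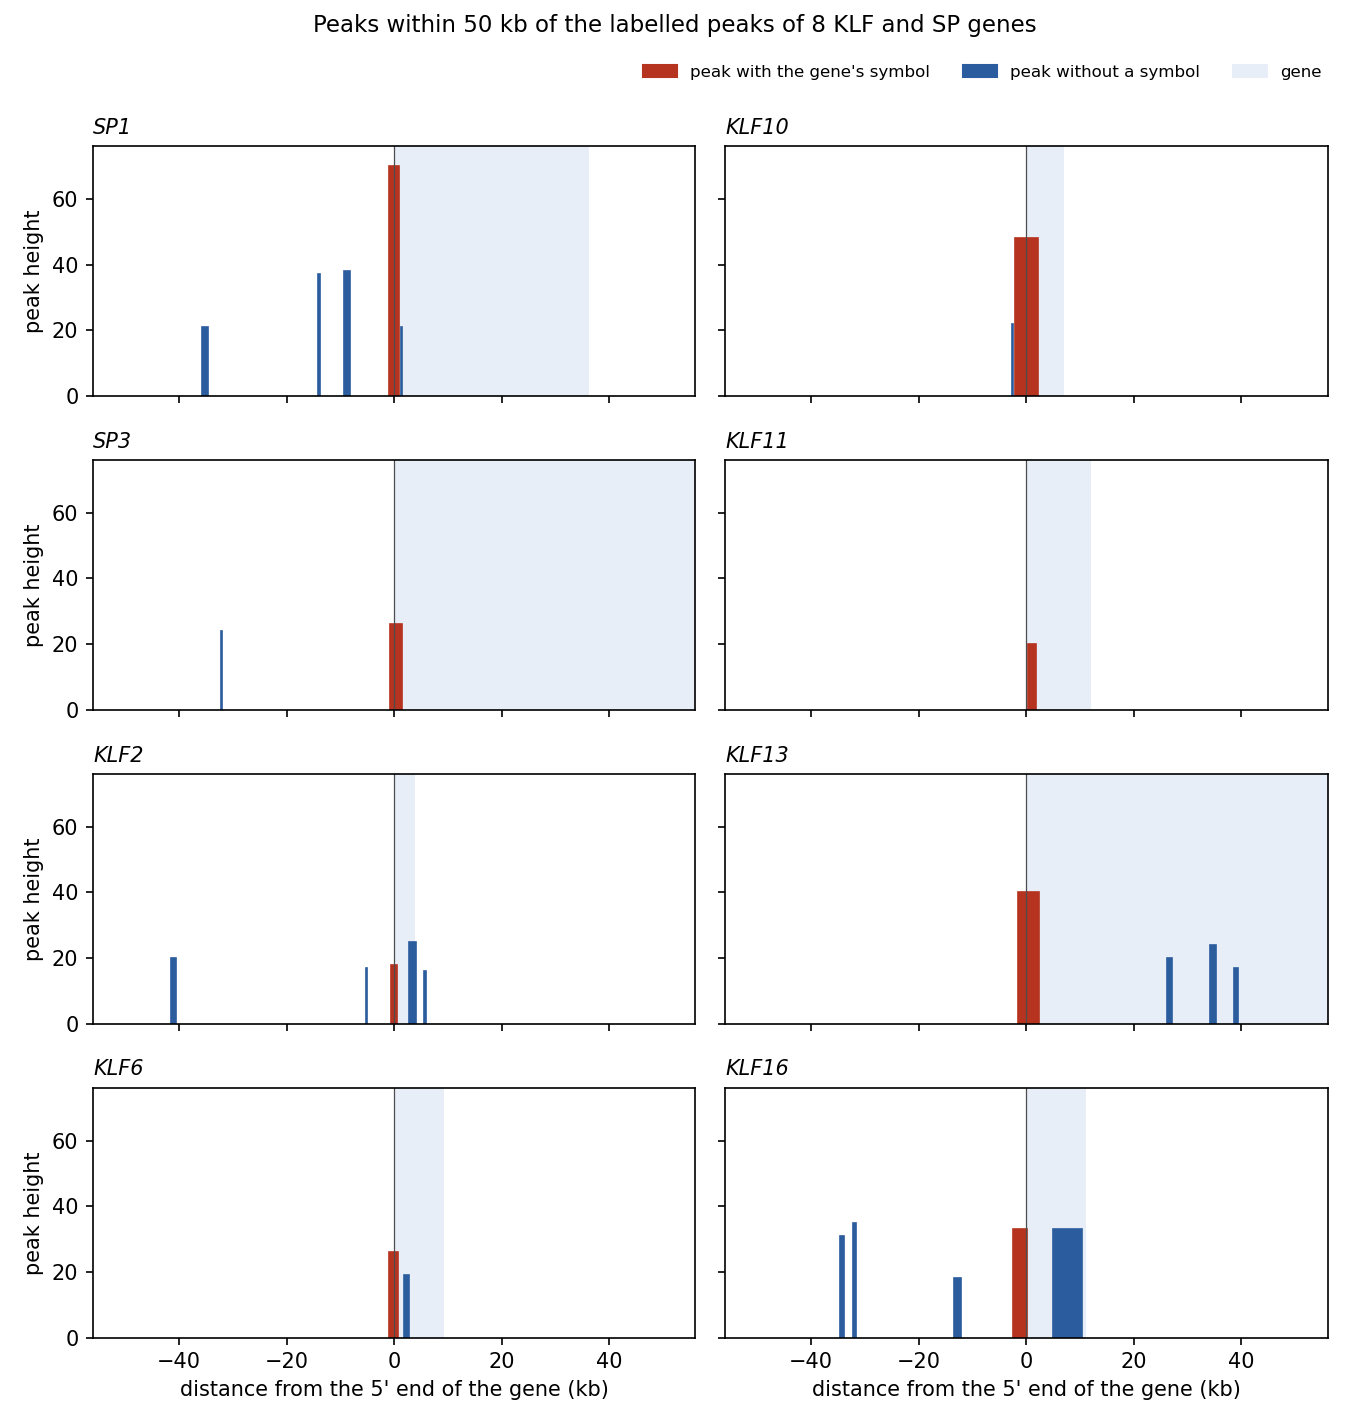
Peaks at the 8 genes by distance (kb) from the 5′ end of the gene in the direction of transcription, with peak height on the vertical axis and bar width equal to peak width plus a thin outline; red bars are labelled, blue bars are unlabelled, peaks with the symbol of another gene are not drawn, and shading marks the gene. The labelled bar is the highest at 6 of the 8 genes, and at KLF2 and KLF16 an unlabelled bar is higher.

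By place, 7 of the 18 unlabelled peaks lay over the gene of their labelled peak and 11 did not. Their median height was 21.5, against 23 over all 8243 unlabelled peaks, and their median width was 708.5 bp against 634 bp. The median labelled peak of the whole list had 0 unlabelled peaks within 50 kb, and 51.1% had none, while the 8 genes had 0 to 4 with a median of 2. Only the KLF16 window held peaks with the symbol of another gene.

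Over the 8 labelled peaks, the apex lay 90 to 600 bp from the nearest own start site, upstream of it at 6 genes and downstream at SP3 and KLF10. At KLF11, counted as upstream, the apex itself lay inside the gene. The median distance of 187 bp compares with 75 bp over all labelled peaks, each to the nearest start site of any gene. GC content within 200 bp of the apex had a median of 76.9% against 64.3% over all labelled peaks, and the ratio of observed to expected CpG dinucleotides was 0.934 against 0.808. A GC box was found within 200 bp of the apex at 8 of 8, against 76.2% of all labelled peaks. In windows of the same length 2 kb upstream of those on the plus strand, whichever strand the gene is on, the share was 13.6%. The median number of GC boxes was 4.5 against 2 over all labelled peaks. The wider KLF pattern CCNCNCCC was also found in 8 of 8 and in 81.6% of all labelled peaks, and 40 of its 61 matches at the 8 genes overlapped a GC box or a CACCC box, so these counts are not independent of each other or of GC content.

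Other motifs divided the promoters. The CACCC box CCACCC was found at SP3, KLF13 and KLF16, or 3 of 8, against 48.7% of all labelled peaks. CCAAT boxes were found at SP1, KLF6, KLF10, KLF11 and KLF13, or 5 of 8, against 44.1%. The ETS core GGAAGT, bound by PU.1 and its relatives, was found at SP1 and KLF10 (36.7% of all labelled peaks). The RUNX site TGTGGT was found at SP3 alone (15.4%) and the AP-1 site TGANTCA at KLF10 alone (7.41%). The retinoid receptor hexamer AGGTCA was in 0 of the 8 windows, against 16.6% of all labelled peaks and 31.0% of the windows 2 kb upstream on the plus strand. Direct repeats were searched with a looser hexamer, RGKTCA (R for A or G, K for G or T), spaced by 1 to 5 bases. They were in 0 of the 8 and in 0.851% of all labelled peaks, and the CRE TGACGTCA in 0 of the 8 and in 3.12%. Both strands were searched, and a share of 8 windows is coarse.

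The unlabelled peaks carried another mixture. Of these 18, 5 had a GC box (24.9% of all unlabelled peaks), 12 a CACCC box (44.3%), 9 an ETS core (47.1%), 5 a RUNX site (40.3%), 4 an AP-1 site (26.7%) and 4 the hexamer AGGTCA (28.8%). The hexamer lay near the apexes of the peak 14121 bp upstream of SP1, of a peak in intron 1 of KLF13, and of 2 peaks at KLF16, the 5245 bp wide one included. The peak 8924 bp upstream of SP1 held 4 CACCC boxes and no GC box, unlike the SP1 promoter, which held 4 GC boxes and no CACCC box. At KLF2, all 4 unlabelled peaks had a CACCC box and none a GC box, while the promoter had 6 GC boxes and no CACCC box.

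KLF3 and KLF4, the genes without a row, differed from each other. At KLF3 (ENSG00000109787, plus strand of chromosome 4 from 38665818 to 38703138), which represses through CtBP, a peak at 38664711 to 38666995 peaked 211 bp before the KLF3 start site, but the authors' symbol was that of KLF3-AS1, the antisense gene. It had a height of 25 (rank 7226) and a width of 2285 bp (rank 616), broad as at SP3. A second peak in intron 1, from 38668746 to 38669187, had a height of 17 (rank 13294) and a width of 442 bp (rank 12832). KLF4, a factor of monocyte differentiation (ENSG00000136826, chromosome 9, 110247133 to 110252763, minus strand), was not overlapped by any peak, and the nearest apex lay 125046 bp from a start site with a height of 18.

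In the whole family, KLF1 to KLF18 and SP1 to SP9, 12 of 27 genes had a labelled peak, where 29.9% of 20149 protein-coding genes had one. With an apex within 1 kb of an own start site as the criterion, 14 of 27 had a peak, KLF3 and SP7 being added, against 39.2% of protein-coding genes. The genes with a peak were unevenly spread over the subfamilies. SP1 to SP4, which share glutamine-rich activation domains, were labelled in 4 of 4 cases, and SP5 to SP9, mostly developmental regulators, in 0 of 5. SP2 reached a height of 57 (rank 234) over 1734 bp (rank 1661) and SP4 a height of 55 (rank 319) over 2402 bp (rank 522), so that SP3 was the low one of the 4. Of the 6 SIN3-binding KLF genes, 5 were labelled, KLF9 with a height of 29 (rank 5211) and a width of 2752 bp (rank 312) among them, and KLF14 was not. CtBP-binding KLF genes (KLF3, KLF8 and KLF12) were labelled in 0 of 3 cases, as were the remaining KLF15, KLF17 and KLF18. Of the 6 activating KLF genes, 3 were labelled (KLF2, KLF6 and KLF7), with heights of 18, 26 and 27, against 20 to 48 at the 5 labelled SIN3-binding genes. KLF7 had in addition an unlabelled peak of height 24 in intron 1, and KLF1, the erythroid factor, only an unlabelled peak of height 31 in intron 2, 1972 bp from its start site. KLF4 and KLF5 had none over the gene, nor had KLF8, KLF12, KLF14, KLF15, KLF17, KLF18, SP5, SP6, SP8 and SP9.

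**Figure D3:**
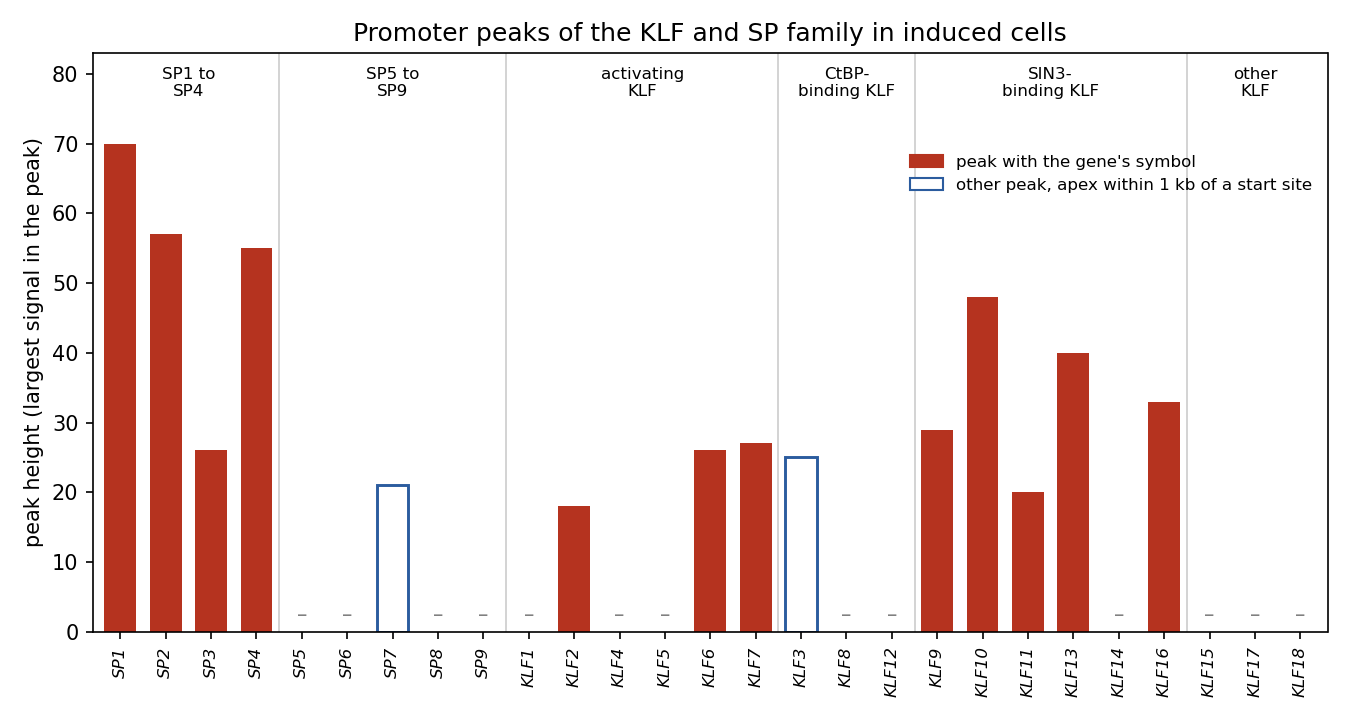
Height (largest signal, deposited units) of the labelled peak of each of 27 KLF and SP genes, grouped by subfamily; open bars are peaks that lie within 1 kb of a start site but carry another symbol or none, and a dash marks a gene with neither. SP1 to SP4 and 5 of the 6 SIN3-binding KLF genes have a red bar, while SP5 to SP9, the CtBP-binding KLF genes and the last group of KLF genes have no red bar.

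Cofactors, upstream regulators and target genes of the family were looked up as a list of 27 further genes. Of these, 16 had a labelled peak, or 59.3% against 29.9% of protein-coding genes. An apex within 1 kb of an own start site was found at 18 of the 27 genes, or 66.7% against 39.2%. The list was chosen with earlier results of these data known, which can by itself raise both shares, and the differences were not tested. Among 12 cofactors, 7 were labelled. SIN3A, the corepressor that KLF10, KLF11, KLF13 and KLF16 recruit, had a peak of height 77 (rank 9) and width 6203 bp (rank 7), from 75742594 to 75748796 on chromosome 15, larger by either measure than any peak of the KLF and SP genes. CTBP1, the partner of KLF3, had a peak that was also wide but low, with a height of 16 (rank 14278) over 3969 bp (rank 64). The other labelled cofactors were HDAC1, HDAC2, HDAC3, EP300 and OGT, with heights of 34, 24, 19, 26 and 31, and CTBP2, SIN3B, CREBBP, KAT2B and TAF4 were not labelled, although at KAT2B an unlabelled peak of height 17 lay 995 bp from a start site. Of 7 upstream regulators, the kinase MAP2K5 and the factors MEF2A and MEF2D, which act on KLF2 and KLF4, and the ubiquitin ligase FBXW7 were labelled. MEF2D was the highest and widest of these, at 35 over 2435 bp, and had 2 labelled peaks. MAPK7, MEF2C and WWP1 were not labelled, although at MAPK7 a peak of height 35 with the symbol of its neighbour B9D1 lay 67 bp from a start site, and at MEF2C an unlabelled one of height 27 lay 152 bp from one.

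Of 8 target genes, 5 were labelled, where 29.9% of protein-coding genes were, and 4 had an apex within 1 kb of a start site, where 39.2% did. ITGAM, the integrin chain of myeloid cells whose promoter SP1 binds, had the highest peak, at 42 (rank 1553), and the cell cycle inhibitor CDKN1A the widest, at 2904 bp (rank 248) with a height of 27. CCND1 and CD14 each had a height of 17 with the apex 2036 and 1496 bp from a start site, and the higher of 2 labelled peaks at SMAD7 reached 24. S1PR1, which KLF2 activates in lymphocytes, and THBD were among those not labelled, and at THBD an unlabelled peak of height 20 lay 354 bp from a start site.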

How the data were processed

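Cut&Run was done on U937-PR9 cells in 2 replicates of each antibody and condition. Before deposition the authors used Trimmomatic for trimming, Bowtie2 for alignment (hg19), SAMtools to drop duplicates, Bedtools to drop blacklisted reads and SEACR (settings norm and union), with the paired controls as background, for peaks, of which those reproducible at an IDR below 0.05 were kept. Versions are not given in the sources used here. Duplicate removal and the reproducibility filter both affect which low peaks enter the list. For each peak the authors deposited a total signal and a score, taken here from their values as the summed and the largest signal (height), since the total was at most height times width in all 15412 peaks. Whether these values were scaled to library size is not given for the list. That the list belongs to induced cells and to anti-PML-RARA was taken from its name and the study's description.

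From these columns, ranks, mean signal per base, distances and counts were computed in Python 3.11.15 (pandas 2.3.3, numpy 2.4.6, pysam 0.24.0, scipy 1.17.1), and figures were drawn by matplotlib 3.10.9. Gene positions came from GENCODE release 44 mapped to GRCh37, the build of hg19, and all 23 chromosomes matched. Motifs were searched within 200 bp of the apex. Recovery of planted motifs was tested on simulated sequences for every pattern except the direct repeats. No test was run, because there is 1 value per peak. Every labelled peak of the members was named, with each unlabelled peak within 50 kb. The other family genes with a peak over the gene or near a start site were named too, and so were the highest, widest and missing of the cofactor and target lists, except 1 gene that is counted but not reported here. The members and lists were chosen with earlier results of these data known.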

Additional observations from a re-analysis of the deposited data

How the results depend on the processing

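The 26 peaks became 11 when the selection was made only from peaks at or above the median height of the list. They became 15 when it was made only from those at or above the median width. Both limits shorten the list by construction, and an unlabelled peak dropped out with its labelled peak. The cofactor, upstream regulator and target genes with a labelled peak fell from 16 to 8 at or above the median height. That cut also drops many labelled peaks of the whole list, of which 3750 of 7169 lay above the median. The share of protein-coding genes at that cut is not given, so this count of 8 cannot be set beside 29.9%. The number of labelled peaks above the third quartile was 6 by width, 3 by height and 2 by mean signal. Searching the whole peak instead of 200 bp each side of the apex raised the share of the 8 labelled peaks with a CACCC box to 87.5%, with a CCAAT box to 100%, with an ETS core to 87.5% with a RUNX site to 50%, with an AP-1 site to 37.5% and with the hexamer AGGTCA from 0 to 25%, as longer windows hold more matches. The AP-1 site was found in 0 (a share of 0%) within 100 bp of the apex and around the peak centre. Without any 1 gene, the median height ran from 26 to 33 and the median width from 1812 to 2228 bp. Merging neighbouring peaks gave a median width of 2335 bp. The medians have no replicate error to be judged by. Each other count tried stayed within 1.5 times the reported one and each other share within its 95% Wilson interval, which is wide for 8 peaks, as for the GC box, at 75% within 100 bp of the apex. No paired analysis was possible because each peak has a single value for both replicates, and leaving out a replicate could not be done either.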

Other observations

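The KLF16 window held 3 labelled peaks of other genes. The SCAMP4 peak (chromosome 19, 1904282 to 1905954), whose centre was 39072 bp from the KLF16 peak, was the highest, with a height of 53 (rank 425). REXO1, the gene next to the 3′ end of KLF16, had a peak of height 22 (rank 9138) and ABHD17A one of height 20 (rank 10691).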
